A study of Homo sapiens with 18 samples.

Results

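The genes described here are 38 regulators of pre-mRNA splicing, taken by symbol from 21714 genes listed in the RNA-Seq data. They are the 12 SR proteins SRSF1 to SRSF12, the 2 SR-like proteins TRA2A and TRA2B, 20 heterogeneous nuclear ribonucleoproteins (hnRNPs) and the 4 CDC-like kinases CLK1 to CLK4. All 38 passed the filter on low counts, so each was among the 15763 genes tested. Their mRNA was measured in MCF10A-ErSrc, a breast epithelial line that carries the v-Src oncoprotein fused to the oestrogen receptor, which tamoxifen switches on. Cells without tamoxifen are called NT and cells transformed with tamoxifen are called TAM. Each state was incubated for 4 h with the vehicle DMSO or with triptolide (TPL, labelled TPL-125nM), which inhibits transcription through XPB, a subunit of the factor TFIIH. This gave 8 RNA-Seq libraries in 4 groups of 2 (NT, NT+TPL, TAM and TAM+TPL), all from 1 engineered line, and the study made ChIP-Seq of RNA polymerase II (RNAPII) in the same groups.

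SR proteins carry RNA-recognition motifs and an arginine-serine rich tail, bind exonic enhancers and in general favour the use of an exon. The hnRNPs bind nascent transcripts and often oppose them, so exon choice depends on the balance of both. CLK kinases phosphorylate the arginine-serine tails of SR proteins and move them out of nuclear speckles. Many genes of these families hold a poison exon, whose inclusion sends the mRNA to nonsense-mediated decay, and CLK1 and CLK4 mRNAs are known to be kept partly in the nucleus with introns retained.

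The RNA-Seq libraries held between 7461309 and 8349448 expected counts, the estimated number of reads per gene. The epithelial keratins KRT5, KRT14, KRT17 and KRT6A ranged from 91.2 to 7284 FPKM (fragments per kilobase of transcript, scaled to the size of the library), and the defining markers of blood (PTPRC), endothelium (PECAM1) and fibroblasts (COL1A1) stayed at or below 6.14 FPKM in all 8 libraries. ESR1 reached 36.9 to 248 FPKM although PGR was at or below 0.01, and the reads do not separate ESR1 from the receptor part of the transgene. KRT5 ran from 434 to 6250 FPKM and was lowest in the TAM+TPL libraries. The 38 genes together took 0.833% and 0.842% of all counts in NT and 0.648% and 0.685% in NT+TPL, then 0.846% and 0.898% in TAM against 0.658% and 0.725% in TAM+TPL. All values are shares of a library of poly-A RNA. A loss common to all mRNAs therefore cannot be read from them, and fewer cells and less RNA per cell cannot be told apart.

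Promoter stretches of 5 members are shown because these genes moved far or apart under TPL: SRSF3 and SRSF6 among the SR proteins with the deepest falls, HNRNPR as the deepest fall of an hnRNP, and CLK1 and CLK4 as the kinases whose log2 fold changes had opposite signs. Each lies within the 200 bases before the start of the canonical transcript, outside annotated exons, on the coding strand of hg19 (RefSeq promoter table on build GRCh38.p14, placed on hg19 by exact match). SRSF7, HNRNPF and HNRNPH3 were sought as well but gave no stretch that passed the same selection. Capitals mark matches, on either strand, to the TATA box (letters TATAAA), the GC box (letters GGGCGG), the CCAAT box, the CRE core (letters TGACGT), the E box (letters CACGTG) and the ETS core (letters CCGGAA).
SRSF3, plus strand of chr6:36561939-36562129: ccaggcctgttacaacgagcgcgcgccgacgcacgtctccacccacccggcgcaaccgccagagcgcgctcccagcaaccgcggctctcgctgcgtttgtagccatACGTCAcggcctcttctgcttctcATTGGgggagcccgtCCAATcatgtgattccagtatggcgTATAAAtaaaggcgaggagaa
SRSF6, plus strand of chr20:42086336-42086532: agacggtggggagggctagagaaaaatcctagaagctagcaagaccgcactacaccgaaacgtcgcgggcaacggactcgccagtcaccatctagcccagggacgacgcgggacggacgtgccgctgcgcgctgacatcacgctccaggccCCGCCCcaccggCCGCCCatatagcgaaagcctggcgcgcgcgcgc
HNRNPR, minus strand of chr1:23670830-23670977: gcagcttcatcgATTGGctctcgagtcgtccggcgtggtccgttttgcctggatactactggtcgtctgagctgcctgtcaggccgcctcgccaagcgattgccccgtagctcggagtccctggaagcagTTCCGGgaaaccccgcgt
CLK1, minus strand of chr2:201729415-201729581: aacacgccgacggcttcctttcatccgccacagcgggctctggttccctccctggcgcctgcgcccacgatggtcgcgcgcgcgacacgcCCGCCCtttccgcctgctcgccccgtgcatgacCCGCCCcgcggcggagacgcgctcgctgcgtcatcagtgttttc
CLK4, minus strand of chr5:178054114-178054251: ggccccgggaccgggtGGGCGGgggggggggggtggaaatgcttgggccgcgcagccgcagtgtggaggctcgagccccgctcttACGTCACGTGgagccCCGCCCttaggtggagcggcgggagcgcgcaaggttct
The SRSF3 stretch held 4 matches (a TATA box, 2 CCAAT boxes and a CRE core), SRSF6 held 2 GC boxes, and HNRNPR held a CCAAT box and an ETS core. CLK1 held 2 GC boxes and nothing else of the list, while CLK4 held 2 GC boxes and a CRE core that overlaps an E box. All 5 stretches lay inside an RNAPII peak in each of the 4 peak lists. The table held 51 promoters of 35 members, each of 300 bases, and none for SRSF2, TRA2A and HNRNPA1. The GC box was found in 64.7% of them against 62.7% of 17424 promoters of tested genes and 45.0% of all 35116 promoters. The TATA box was found in 11.8% against 7.1% and 11.5%, the CCAAT box in 45.1% against 34.8% and 34.6%, and the CRE core in 15.7% against 10% and 8.0%. The E box was found in 19.6% against 8.9% and 7.3%, and the ETS core in 17.6% against 25.3% and 17.2%. Such matches are letters in a window and were not tested as binding sites.

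The first comparison asked how TPL changed these mRNAs in untransformed cells. Of the 38 genes, 18 fell and 2 rose at an adjusted p of at most 0.05, that is 47.4% falling, against 24.1% of all 15763 genes that fell and 23.5% that rose (edgeR quasi-likelihood test, Benjamini-Hochberg adjustment over all genes). The median log2 fold change of the 38 genes was -0.35 and that of all genes was 0.10. All genes were not matched to the members by level. Across all genes Pearson's r between the log2 fold change and the log2 FPKM without TPL was -0.42 in NT and -0.49 in TAM cells. The members were also chosen with earlier results of these data known. At the thresholds the study used, with adjusted p up to 0.001 and changes of 1.2 or more in size on the log2 scale, 10 members fell and 0 rose, with 8.39% of all genes falling and 4.33% rising. These thresholds were applied to the edgeR fit used here, so such counts are not the study's own calls. In TAM cells 19 fell and 2 rose, against 23.5% of all genes that fell and 20.4% that rose, and the medians were -0.51 and 0.05. At the study's thresholds 8 members fell in TAM cells and 0 rose, beside 7.31% and 3.92% of all genes. Without TAM+TPL replicate 1 the number that fell in TAM cells was 12. Under upper quartile scaling 5 members rose and 15 fell in NT cells, and 5 rose and 14 fell in TAM cells. With GAPDH as the reference 0 rose and 24 fell in NT cells, and 1 rose and 19 fell in TAM cells.

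**Figure D1:**
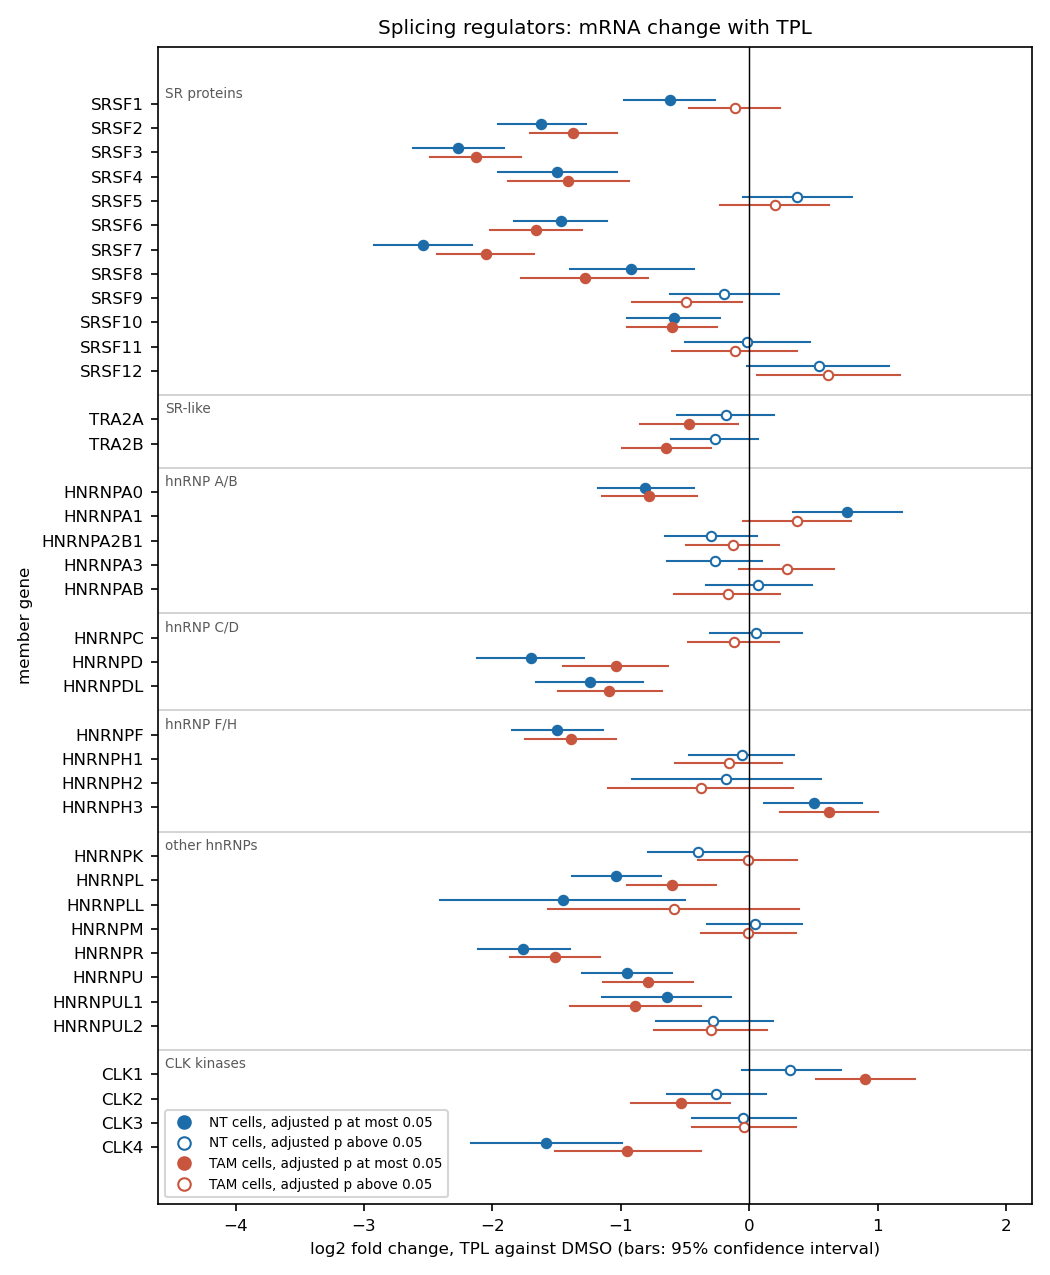
Log2 fold change with TPL against DMSO (x axis) of the 38 genes (y axis, by family) in NT cells (blue) and TAM cells (red); bars are 95% confidence intervals and filled points have an adjusted p of at most 0.05. Most filled points lie left of 0, with SRSF7 and SRSF3 farthest, while HNRNPH3 lies right of 0 in both states.

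The SR proteins held the deepest falls. Of the 12, 8 fell in NT cells and 7 in TAM cells, none rose, and the median log2 fold changes were -0.77 and -0.94. SRSF7, which binds purine-rich RNA and carries a zinc knuckle, stood at 51.5 and 46.5 FPKM in the NT libraries and at 8.80 and 8.14 with TPL. In TAM cells it went from 43.3 and 48.7 FPKM to 11.1 and 11.8. Each TPL library lay far below every DMSO library. The log2 fold change was -2.54 (SE 0.173, adjusted p = 1.94e-06) in NT cells, a 5.81-fold fall, and -2.05 (SE 0.169, adjusted p = 6.52e-06) in TAM cells.

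SRSF3, the smallest SR protein and a regulator of mRNA export as well as splicing, fell in both states too. It was at 86.6 and 82.2 FPKM in NT and at 16.7 and 16.2 in NT+TPL. The TAM libraries held 79.0 and 85.2 FPKM and the TAM+TPL libraries 17.0 and 19.3. The 4 TPL libraries lay close together and far below all DMSO libraries. The log2 fold change was -2.27 (SE 0.163, adjusted p = 2.43e-06) in NT cells and -2.13 (SE 0.162, adjusted p = 4.13e-06) in TAM cells.

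SRSF2, a speckle protein that acts at exonic enhancers, was the most abundant SR mRNA per length in the DMSO libraries. Its level was 257 and 253 FPKM in NT, 85.0 and 75.5 in NT+TPL, then 207 and 226 in TAM against 82.1 and 85.1 in TAM+TPL. The TPL libraries of both states overlapped each other and lay well apart from the DMSO libraries. The change was -1.62 (SE 0.158, adjusted p = 1.66e-05) in NT cells and -1.37 (SE 0.157, adjusted p = 5.85e-05) in TAM cells on the log2 scale.

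SRSF6 and SRSF4 are close relatives with long arginine-serine tails. SRSF6 stood at 55.1 and 61.2 FPKM in NT, 20.2 and 20.8 in NT+TPL, then 64.9 and 65.1 in TAM against 18.6 and 22.0 in TAM+TPL. SRSF4 stood at 50.04 and 43.5, 13.4 and 19.8, 45.1 and 46.0, and 18.9 and 16.6 FPKM in the same order. For both genes the TPL libraries lay below all DMSO libraries. SRSF6 moved on the log2 scale by -1.47 (SE 0.164, adjusted p = 4.11e-05) in NT and -1.66 (SE 0.165, adjusted p = 2.23e-05) in TAM cells. SRSF4 changed by -1.50 (SE 0.214, adjusted p = 0.000225) and -1.41 (SE 0.213, adjusted p = 0.000366).

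SRSF8, a gene related to SRSF2, was weakly expressed, at 11.0 and 11.4 FPKM in NT, 5.87 and 6.84 in NT+TPL, then 10.4 and 12.6 in TAM against 4.04 and 6.07 in TAM+TPL. It fell by 0.92 on the log2 scale in NT cells (adjusted p = 0.00603) and by 1.28 in TAM cells (adjusted p = 0.000978). SRSF10, which acts as a repressor when dephosphorylated, fell by 0.59 and by 0.60 (adjusted p = 0.0115 and 0.0114). Both were lost under upper quartile scaling (adjusted p = 0.0791 and 0.0892). The SRSF10 call was lost in NT cells without NT replicate 2 (adjusted p = 0.0624), and in TAM cells without TAM replicate 2 or either TAM+TPL replicate (adjusted p of up to 0.0876). SRSF1, the founding member of the family, fell in NT cells by 0.62 (SE 0.163, adjusted p = 0.00887). The SRSF1 call was lost under upper quartile scaling (-0.40, adjusted p = 0.0542) and without NT replicate 2 (-0.48). In TAM cells its log2 fold change was -0.11 with a 95% interval of -0.47 to 0.24 (adjusted p = 0.595). The difference between the states was 0.51 with an interval of 0.01 to 1.02 and an adjusted p of 0.401, so the states were not shown to differ.

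The other 4 SR mRNAs did not pass the test in either state. SRSF5 had log2 fold changes of 0.37 and 0.20 (adjusted p = 0.132 and 0.428), SRSF11 of -0.02 and -0.11, and SRSF12, which stayed at or below 5.04 FPKM, of 0.54 and 0.61 (adjusted p = 0.102 and 0.0687). SRSF9 had -0.20 and -0.49 (adjusted p = 0.42 and 0.061). SRSF5 held 10.3% of the summed FPKM of the 12 SR genes in each NT library and 25.3% in NT+TPL (SD 2.97, n = 2). Shares were rounded before their SD was taken, so the SDs of shares are approximate. In TAM the share was 11.6% (SD 0.28) and in TAM+TPL 24.4% (SD 1.56). SRSF2 went the other way, from 33.9% (SD 0.57) to 20.4% (SD 4.03) in NT cells and from 30.2% (SD 0.42) to 20.9% (SD 0.57) in TAM cells. SRSF3 went from 11.2% (SD 0.14) to 4.2% (SD 0.57) and from 11.5% (SD 0.07) to 4.5% (SD 0.14). The summed level itself was 753 FPKM (SD 21.4) in NT and 398 (SD 45.5) in NT+TPL, and 715 (SD 35.1) in TAM and 400.4 (SD 20.4) in TAM+TPL. With TPL, SRSF5 took the place of SRSF2 as the most abundant SR mRNA per length in 3 of 4 libraries and stood level with it in the other, at 23.2% each.

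**Figure D2:**
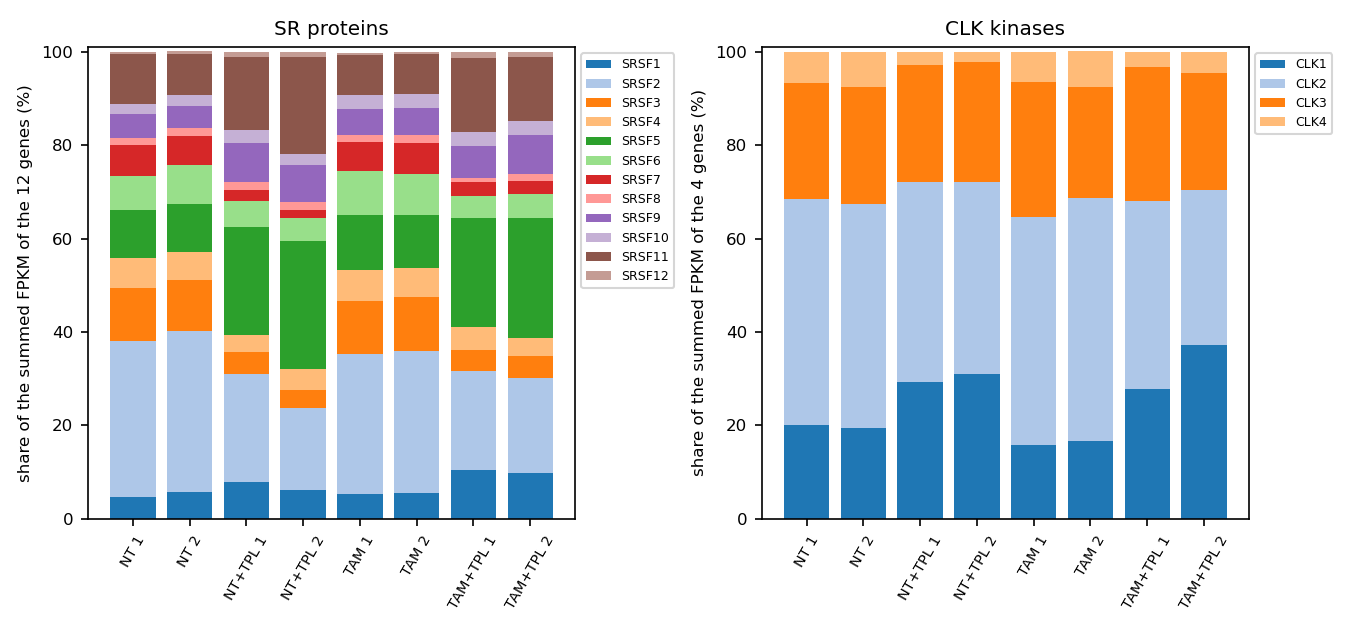
Share (%, y axis) of each gene in the summed FPKM of the 12 SR protein genes (left) and of the 4 CLK genes (right) in each of the 8 RNA-Seq libraries (x axis). With TPL the SRSF5 and SRSF11 blocks are larger and the SRSF2, SRSF3 and SRSF7 blocks smaller in both states, and the CLK1 block is larger and the CLK4 block smaller.

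The SR-like proteins TRA2A and TRA2B bind GAA repeats and activate exons together with SR proteins. Neither passed the test in NT cells, with log2 fold changes of -0.18 and -0.27 (adjusted p = 0.399 and 0.173). In TAM cells TRA2B fell by 0.65 (adjusted p = 0.00649) and TRA2A fell by 0.47 (adjusted p = 0.048). Both calls were lost under upper quartile scaling (adjusted p = 0.0511 for TRA2B and 0.319 for TRA2A). The TRA2A call was lost without any 1 of the NT, TAM or TAM+TPL libraries (adjusted p of up to 0.262), and that of TRA2B without TAM replicate 2 or TAM+TPL replicate 1 (adjusted p of up to 0.0674). The difference between the states was -0.38 for TRA2B and -0.29 for TRA2A, with adjusted p values of 0.516 and 0.671.

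Of the 20 hnRNP genes, HNRNPR fell farthest. HNRNPR, the paralog of SYNCRIP (hnRNP Q), stood at 17.7 and 18.9 FPKM in NT, 5.83 and 5.06 in NT+TPL, then 18.4 and 19.5 in TAM against 6.5 and 7.09 in TAM+TPL. The TPL and DMSO libraries were well separated in both states. Its log2 fold change was -1.76 (SE 0.163, adjusted p = 1.24e-05) in NT cells and -1.51 (SE 0.161, adjusted p = 3.48e-05) in TAM cells.

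HNRNPD (AUF1) binds AU-rich elements and promotes mRNA decay, and HNRNPDL is its paralog. HNRNPD was at 67.8 and 64.2 FPKM in NT and 23.8 and 17.5 in NT+TPL, while TAM held 52.1 and 64.9 and TAM+TPL 27.0 and 31.5. HNRNPDL was at 17.8 and 19.1, 7.94 and 7.60, 23.8 and 25.7, and 9.99 and 13.9 FPKM in that order. HNRNPC, the third gene of the C/D group and a binder of poly-U tracts, stayed between 205 and 257 FPKM in all libraries. HNRNPD changed by -1.70 (SE 0.189, adjusted p = 4.04e-05) in NT cells and -1.04 (SE 0.185, adjusted p = 0.00106) in TAM cells. HNRNPDL changed by -1.24 (SE 0.188, adjusted p = 0.000336) and -1.09 (SE 0.184, adjusted p = 0.00079). HNRNPC had log2 fold changes of 0.05 and -0.12 (adjusted p = 0.812 and 0.557).

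The F/H group, which binds G tracts, split. HNRNPF was at 155 and 172 FPKM in NT, 63.4 and 53.0 in NT+TPL, then 167 and 180 in TAM against 66.7 and 69.3 in TAM+TPL. HNRNPH3 was at 19.1 and 21.2 FPKM, 27.9 and 29.1, 25.8 and 32.4, and 45.4 and 47.2 in the same order. HNRNPF was lower and HNRNPH3 higher in both TPL libraries than in both DMSO libraries of each state. HNRNPF changed by -1.50 (SE 0.162, adjusted p = 3.37e-05) in NT cells and -1.39 (SE 0.161, adjusted p = 6.19e-05) in TAM cells. HNRNPH3 rose by 0.50 (SE 0.176, adjusted p = 0.0371) and 0.62 (SE 0.173, adjusted p = 0.014), and it was the only member that rose in both states, beside 14.2% of all genes. The call for HNRNPH3 in NT cells was lost without 1 of 5 libraries (NT replicate 1 or 2, NT+TPL replicate 2, TAM+TPL replicate 1 or 2), with an adjusted p of up to 0.19. In TAM cells it was lost without TAM replicate 1 or either TAM+TPL replicate, with an adjusted p of up to 0.151. With GAPDH as the reference HNRNPH3 had 0.13 in NT cells (adjusted p = 0.687) and 0.50 in TAM cells (adjusted p = 0.108). HNRNPH1, the most abundant of the group after TPL, had log2 fold changes of -0.06 and -0.16 (adjusted p = 0.819 and 0.495), and HNRNPH2, at most 2.47 FPKM, of -0.18 and -0.38. HNRNPF thereby went from 41.8% (SD 1.56) to 20.7% (SD 4.88) of the summed FPKM of the 4 genes in NT cells, and HNRNPH3 from 7.65% (SD 0.92) to 16.9% (SD 1.06) in TAM cells.

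The A/B group holds the core hnRNP A1, A2 and B1 proteins that bind UAGG-like motifs and silence exons. HNRNPA1, with the highest level of the 38 genes, was at 520 and 533 FPKM in NT and 781 and 961 in NT+TPL, while TAM held 569 and 600.1 and TAM+TPL 674 and 861. Both TPL libraries lay above both DMSO libraries in each state. It rose by 0.76 on the log2 scale in NT cells (SE 0.194, adjusted p = 0.00774). That call was lost without NT replicate 2 (0.74) and with GAPDH as the reference (0.41, adjusted p = 0.163). In TAM cells HNRNPA1 had 0.37 (95% interval -0.05 to 0.79, adjusted p = 0.141). HNRNPA1 has near-identical processed copies, so reads can be split between them. Of the copies searched, HNRNPA1L2 stayed between 2.02 and 4.75 FPKM, and HNRNPA1P10, which rose in TAM cells (2.87, adjusted p = 0.0253), was at 8.24 and 5.20 in NT, 25.7 and 5.61 in NT+TPL, then 4.10 and 0 in TAM against 20.4 and 10.7 in TAM+TPL. HNRNPA0, an intronless relative, fell by 0.81 in NT cells and by 0.78 in TAM cells (adjusted p = 0.00264 and 0.00345), the latter lost without TAM+TPL replicate 1 (adjusted p = 0.0514). HNRNPAB and HNRNPA2B1 did not pass the test in either state.

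Of the other 8 hnRNP genes, HNRNPL, a binder of CA repeats, was at 84.6 and 78.9 FPKM in NT, 39.0 and 40.8 in NT+TPL, then 70.6 and 65.4 in TAM against 44.5 and 47.7 in TAM+TPL. HNRNPL fell by 1.04 with TPL (SE 0.157, adjusted p = 0.000342) in NT cells and by 0.60 in TAM cells (SE 0.156, adjusted p = 0.00922). The HNRNPL call in TAM cells was lost under upper quartile scaling (-0.36, adjusted p = 0.0814). It was also lost without TAM replicate 1 or TAM+TPL replicate 1 (-0.57 and -0.56). HNRNPLL, the relative of HNRNPL, was at 2.80 and 4.62 FPKM in NT and 1.99 and 0.80 in NT+TPL, on 17.0 to 115 counts a library. HNRNPLL changed by -1.45 (SE 0.437, adjusted p = 0.0175) in NT cells, lost without NT replicate 2 (-1.05, adjusted p = 0.151) or NT+TPL replicate 2 (-0.92, adjusted p = 0.0813), and by -0.59 in TAM cells (adjusted p = 0.3). HNRNPU, a chromatin-bound scaffold protein, fell by 0.95 and by 0.79 (adjusted p = 0.000703 and 0.0024). Its paralog HNRNPUL1 fell by 0.64 and by 0.89 (adjusted p = 0.0387 and 0.00949), with NT+TPL libraries at 98.0 and 52.6 FPKM. Under upper quartile scaling the HNRNPUL1 call in NT cells was lost (-0.42, adjusted p = 0.139). In NT cells the HNRNPUL1 call was lost without any 1 of 7 libraries (all but NT+TPL replicate 1), with -0.27 (adjusted p = 0.218) without NT+TPL replicate 2. In TAM cells it was lost without TAM replicate 1 or either TAM+TPL replicate (adjusted p of up to 0.0682). HNRNPM, HNRNPK and HNRNPUL2 did not pass the test, and HNRNPM had log2 fold changes of 0.04 (interval -0.33 to 0.41) and -0.01 (interval -0.38 to 0.36).

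**Figure D3:**
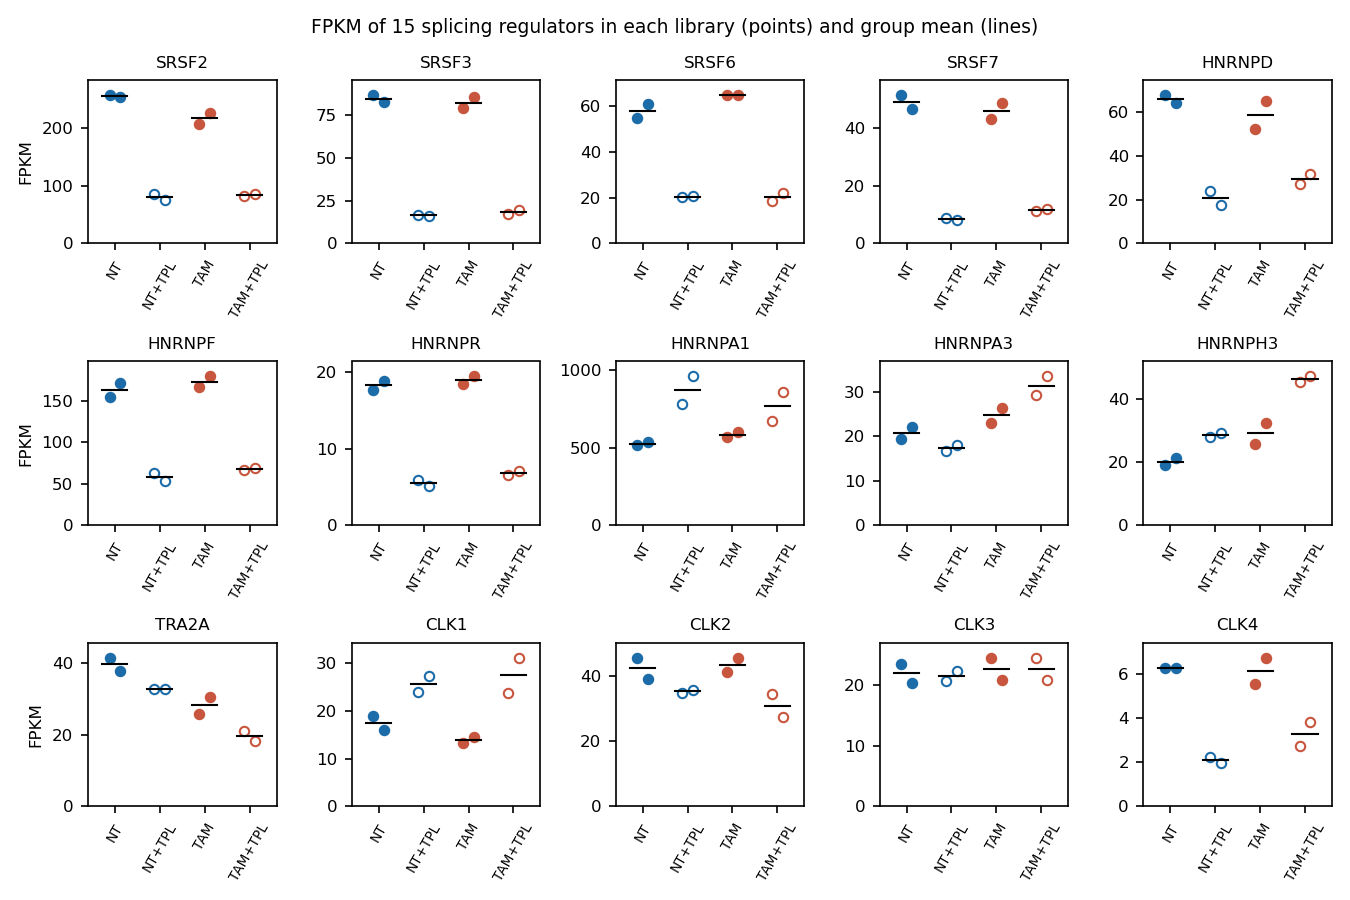
FPKM (y axes, each from 0) of 15 members in the 2 libraries (points) of each of the 4 groups (x axis), with group means as lines; NT cells are blue, TAM cells red, and open points had TPL. SRSF3, SRSF7, HNRNPF, HNRNPR and CLK4 are lower in every TPL library than in every DMSO library, HNRNPH3 and CLK1 are higher with TPL within each state, and HNRNPA3 and TRA2A separate NT from TAM cells.

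Among the 4 CLK kinases, CLK4 fell in both states, CLK1 rose and CLK2 fell in TAM cells, and CLK3 passed the test in neither. CLK4 was at 6.27 and 6.23 FPKM in NT, 2.21 and 1.98 in NT+TPL, then 5.52 and 6.71 in TAM against 2.74 and 3.82 in TAM+TPL, from 38 to 142 counts a library. CLK1 was at 18.9 and 15.97 FPKM in NT, 24.0 and 27.2 in NT+TPL, then 13.3 and 14.6 in TAM against 23.7 and 31.1 in TAM+TPL. CLK4 was lower and CLK1 higher with TPL, with no overlap of libraries within a state. CLK4 fell by 1.58 on the log2 scale (SE 0.269, adjusted p = 0.000717) in NT cells and by 0.95 in TAM cells (SE 0.258, adjusted p = 0.012), the latter lost without TAM replicate 2 (-0.80, adjusted p = 0.0892) or TAM+TPL replicate 1 (-0.73, adjusted p = 0.105). CLK1 rose in TAM cells by 0.90 (SE 0.175, adjusted p = 0.00183). In NT cells its log2 fold change was 0.32 (95% interval -0.06 to 0.71, adjusted p = 0.142). That value was -0.03 with GAPDH as the reference and 0.55 with upper quartile scaling (adjusted p = 0.0215). The TPL effect on CLK1 differed between the states by 0.58 with an interval of 0.04 to 1.12 and an adjusted p of 0.375.

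CLK2, the most abundant kinase of the family here, was at 45.5 and 39.2 FPKM in NT, 34.9 and 35.8 in NT+TPL, then 41.1 and 45.5 in TAM against 34.4 and 27.5 in TAM+TPL. CLK3 was at 23.5 and 20.4, 20.6 and 22.4, 24.5 and 20.9, and 24.5 and 20.9 FPKM in the same order. CLK2 fell by 0.53 in TAM cells (SE 0.177, adjusted p = 0.0295) and had -0.26 in NT cells (adjusted p = 0.246). The CLK2 call in TAM cells was lost under upper quartile scaling (-0.29, adjusted p = 0.21). It was also lost without TAM replicate 1 or 2 or TAM+TPL replicate 2 (-0.62, -0.47 and -0.37). CLK3 overlapped between all groups and had log2 fold changes of -0.05 and -0.04 (intervals -0.45 to 0.36 in both states). The summed level of the 4 kinases was 88.0 FPKM (SD 8.77) in NT and 84.6 (SD 4.03) in NT+TPL, and 86.1 (SD 2.26) in TAM and 84.4 (SD 1.48) in TAM+TPL. Within that sum CLK1 went from 19.8% (SD 0.42) to 30.2% (SD 1.27) in NT cells and from 16.3% (SD 0.64) to 32.6% (SD 6.72) in TAM cells. CLK4 went from 7.15% (SD 0.64) to 2.50% (SD 0.28) and from 7.10% (SD 0.85) to 3.90% (SD 0.99). These shares rest on FPKM, in which CLK1 had means of 17.4 in NT and 25.6 in NT+TPL. The fit on counts gave a smaller change for CLK1 in NT cells, 1.25-fold, which did not pass.

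Set side by side, 16 members fell in both states, which is 88.9% of the 18 that fell in NT cells and 84.2% of the 19 that fell in TAM cells. Among all genes 2850 fell in both, of 3801 that fell in NT cells and 3709 that fell in TAM cells. These 2850 are 18.1% of all 15763 genes tested. SRSF1 and HNRNPLL passed in NT cells alone, and TRA2A, TRA2B and CLK2 in TAM cells alone. The log2 fold changes of the 38 genes in the 2 states had a Pearson's r of 0.91 (Spearman's rho 0.89), and those of all 15763 genes had 0.81 (rho 0.82). These are descriptions across genes, which are not independent, and the 2 comparisons use different libraries. No member passed the test of the difference between the TPL effects, which 0.85% of all genes passed (4 members had an unadjusted p under 0.05). Among the members, Pearson's r between the log2 fold change and the log2 FPKM without TPL was 0.02 in NT and -0.08 in TAM cells (n = 38). Across all genes it was -0.42 and -0.49. The fold change and the level without TPL use the same DMSO libraries, which can shape r by itself. No trait of the members is therefore read from these values. With log2 gene length r was 0.15 and 0.16 in the members and -0.07 and -0.03 across 15044 genes.

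TAM and NT cells were also compared without TPL. None of the 38 genes passed the test, by edgeR's quasi-likelihood test (10.7% of all genes passed in either direction, and 5 members had an unadjusted p under 0.05). DESeq2 called 1 member higher in TAM cells. The largest log2 differences were those of HNRNPLL at -0.88 (adjusted p = 0.242) and HNRNPH3 at 0.55 (adjusted p = 0.074). With TPL, 3 members were higher and 1 lower in TAM than in NT cells, beside 4.82% and 7.06% of all genes. They are named although the rule for full values did not cover this comparison. HNRNPA3, an A/B hnRNP, was at 16.6 and 17.9 FPKM in NT+TPL and 29.2 and 33.5 in TAM+TPL, against 19.5 and 22.0 in NT and 23.0 and 26.4 in TAM. HNRNPA2B1 was at 45.6 and 49.2 FPKM in NT+TPL and 69.9 and 81.1 in TAM+TPL. TRA2A was at 32.9 and 32.7 FPKM in NT+TPL and 21.1 and 18.2 in TAM+TPL. The TPL libraries of the 2 states did not overlap for any of these 3 genes or for HNRNPH3. The log2 differences were 0.83 for HNRNPA3 (adjusted p = 0.00833), 0.67 for HNRNPH3 (0.0276), 0.64 for HNRNPA2B1 (0.0266) and -0.77 for TRA2A (0.0137). All 4 were lost without TAM+TPL replicate 2, with adjusted p values of 0.0833, 0.143, 0.191 and 0.185. HNRNPH3, HNRNPA2B1 and TRA2A were also lost without TAM+TPL replicate 1, and HNRNPA2B1 without either TAM replicate. The keratin KRT5 separated the states too, at 5776 and 6250 FPKM in the NT libraries and at 1308 in both TAM libraries. With TPL it was at 4630 and 3677 FPKM in NT+TPL and at 475 and 434 in TAM+TPL. KRT6A did not separate them, at 4101 and 3969 FPKM in NT against 4062 and 4623 in TAM, and KRT14 overlapped with TPL. The part of KRT5 in these differences was not tested. With GAPDH as the reference the 3 higher calls were lost, with 0.60 for HNRNPA3 (adjusted p = 0.111), 0.44 for HNRNPH3 (0.257) and 0.42 for HNRNPA2B1 (0.252). This comparison shares its libraries with the TPL comparisons above. HNRNPA3 had a log2 fold change with TPL of -0.27 in NT cells and 0.29 in TAM cells, neither of which passed, and the difference of 0.56 had an adjusted p of 0.375.

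The files list 6 extra transcript entries for 4 members (SRSF5, HNRNPA1, HNRNPK and HNRNPUL1), which were summed with the main entry of the gene. For SRSF5 the main entry held 17.9 and 44.4 FPKM in the 2 NT libraries and the extra entry 61.0 and 31.9, while their sums were 78.9 and 76.3. For HNRNPA1 the extra entry, a non-coding transcript, held 41.3 and 130 FPKM in NT and 116 and 12.2 in NT+TPL. The split between entries thus varied between replicates more than the sum did. For HNRNPK, a poly-C binding protein, the main entry held 112 and 119 FPKM in NT and 72.3 and 70.6 in NT+TPL, and the largest extra entry 20.3 and 40.8 in NT and 55.7 and 34.2 in NT+TPL. Summed, HNRNPK had log2 fold changes of -0.40 in NT (adjusted p = 0.0818) and -0.01 in TAM cells.

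Other genes of the splicing machinery were counted beside the shares of all genes given above, of which 24.1% fell and 23.5% rose in NT cells, and 23.5% fell and 20.4% rose in TAM cells. Of 8 further SR kinases and importers, 5 fell in NT cells and 4 in TAM cells, and none rose. DYRK2, a dual-specificity kinase, was weakly expressed, at 3.36 and 4.37 FPKM in NT and 0.75 and 0.46 in NT+TPL. In TAM it was at 3.97 and 2.80 FPKM, and in TAM+TPL at 0.39 and 1.08. DYRK2 had log2 fold changes of -2.72 and -2.23 (adjusted p = 0.000342 and 0.00115), SRPK2 -0.96 and -0.88 (0.0102 and 0.0167) and SRPK1 -0.94 and -0.47 (0.000979 and 0.0394). Both SRPK kinases phosphorylate SR proteins in the cytoplasm. Of 17 SR-related coactivators, 9 fell in NT cells, and in TAM cells 5 fell (29.4%, near the share of all genes) and 1 rose. BCLAF1 fell by 1.84 and by 1.32 (adjusted p = 1.24e-05 and 0.000114), and PNN, a desmosome and speckle protein, rose in TAM cells by 0.50 (adjusted p = 0.0312).

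Of 26 other splicing regulators, 12 fell and 2 rose in NT cells, and 9 fell and 3 rose in TAM cells, that is 46.2% and 34.6% falling. ESRP2, which drives the epithelial splicing programme, was at 48.6 and 50.8 FPKM in NT and 3.91 and 2.08 in NT+TPL, and its log2 fold changes were -4.06 and -3.73 (adjusted p = 1.25e-06 and 1.99e-06). SYNCRIP fell by 3.18 and by 2.54 (adjusted p = 7.68e-07 and 1.99e-06). RALY, a relative of HNRNPC, rose by 1.26 and 1.21 (adjusted p = 0.000137 and 0.000211). Of 32 core spliceosome genes, 14 fell (43.8%) and 2 rose in each state. U2AF2, the large subunit of the polypyrimidine tract binder U2AF, fell by 1.36 and by 1.24 (adjusted p = 4.28e-05 and 8.99e-05), and PRPF3, of the U4/U6 particle, fell by 1.43 and by 1.01 (adjusted p = 8.38e-05 and 0.000847). Of 10 genes of nonsense-mediated decay, 4 fell and 1 rose in each state, too few genes for a share to be read. SMG9, part of the SMG1 kinase complex, fell by 3.20 and by 1.93 (adjusted p = 1.58e-05 and 0.000283), while the helicase UPF1 rose by 0.73 and 1.23 (adjusted p = 0.00847 and 0.000437). The median log2 fold changes in NT and TAM cells were -0.54 and -0.51 for the kinases, -0.49 and -0.39 for the coactivators, -0.33 and -0.19 for the other regulators, -0.37 and -0.40 for the core spliceosome, and -0.32 and -0.11 for decay, against 0.10 and 0.05 for all genes.

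RNAPII peaks over the start of the canonical transcript were listed for 37 of the 38 genes in the NT list, 37 in NT+TPL, 37 in TAM+TPL and 36 in TAM. Of 15044 tested genes with an annotated start, 63.2%, 50.4%, 49.5% and 55.6% had such a peak in the same order. SRSF12, a weakly expressed SR gene at chr6:89805678-89827790, had none in any list, and HNRNPH2, a gene of the X chromosome, had none in TAM. Each condition has 1 list, without scores or replicates, and the peak names carry another cutoff in the TAM list than in the other 3. The peak names in each list carry the name of replicate 1, and whether replicates were pooled is not given in the sources used here. Presence and width are therefore descriptions. A difference between the TAM list and any other, the TAM+TPL list included, cannot be told apart from the cutoff.

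The peaks of the members were wide. Their median width was 1809 bp in the NT list, 1501 in NT+TPL and 1096 in both TAM lists, against 730 bp, 646 bp, and 490 bp (DMSO) or 521 bp (TPL) over the starts of all tested genes with a peak. In NT cells 18 of 37 members with a peak in both lists had a narrower peak with TPL, against 62.9% of 7302 genes. In TAM cells, where the cutoff differs between the lists, 13 of 36 did, against 44.9% of 6780 genes. The median ratios of the width with TPL to that with DMSO were 1.06 in NT and 1.11 in TAM cells in the members, against 0.88 and 1.04 in all genes. Of the 18 members whose mRNA fell in NT cells, 11 had a narrower peak, beside the 62.9% of all genes. Of the 17 whose mRNA did not pass the test 6 did, and of the 2 that rose 1 did. In TAM cells 7 of the 19 members that fell, 6 of the 15 that did not pass and 0 of the 2 that rose had a narrower peak. HNRNPF had the strongest narrowing, from 4993 to 713 bp in NT cells and from 2333 to 547 bp in TAM cells. HNRNPA0 went from 3656 to 1346 bp and from 1117 to 640 bp, SRSF2 from 7026 to 2979 bp in NT cells but from 1455 to 2127 bp in TAM cells, and HNRNPAB from 12696 to 2284 bp in NT cells and from 3453 to 3481 bp in TAM cells.

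Peaks of some other members were wider with TPL in NT cells. SRSF7 had a peak of 2167 bp in NT (chr2:38976592-38978758) and of 11493 bp in NT+TPL (chr2:38967238-38978730), which ran past the annotated end of the gene at 38970741 on the minus strand. The peaks of SRSF2 and HNRNPAB in the NT list, and of HNRNPH1 in NT+TPL, also ran past their annotated gene ends. In TAM cells the SRSF7 peak was 1221 bp with DMSO and 2047 bp with TPL. HNRNPH1 went from 4414 to 11819 bp in NT cells and from 1215 to 3741 bp in TAM cells. HNRNPA2B1 went from 11553 to 24995 bp in NT cells and from 4175 to 2905 bp in TAM cells. CLK1 went from 1084 to 2221 bp and from 1016 to 2360 bp, and CLK4 from 905 to 1269 bp and from 516 to 768 bp. SRSF7 and CLK4, whose mRNA fell, and CLK1, whose mRNA did not fall, thus all had wider listed peaks with TPL in NT cells, and also in TAM cells, where the width cannot be told apart from the cutoff.

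**Figure D4:**
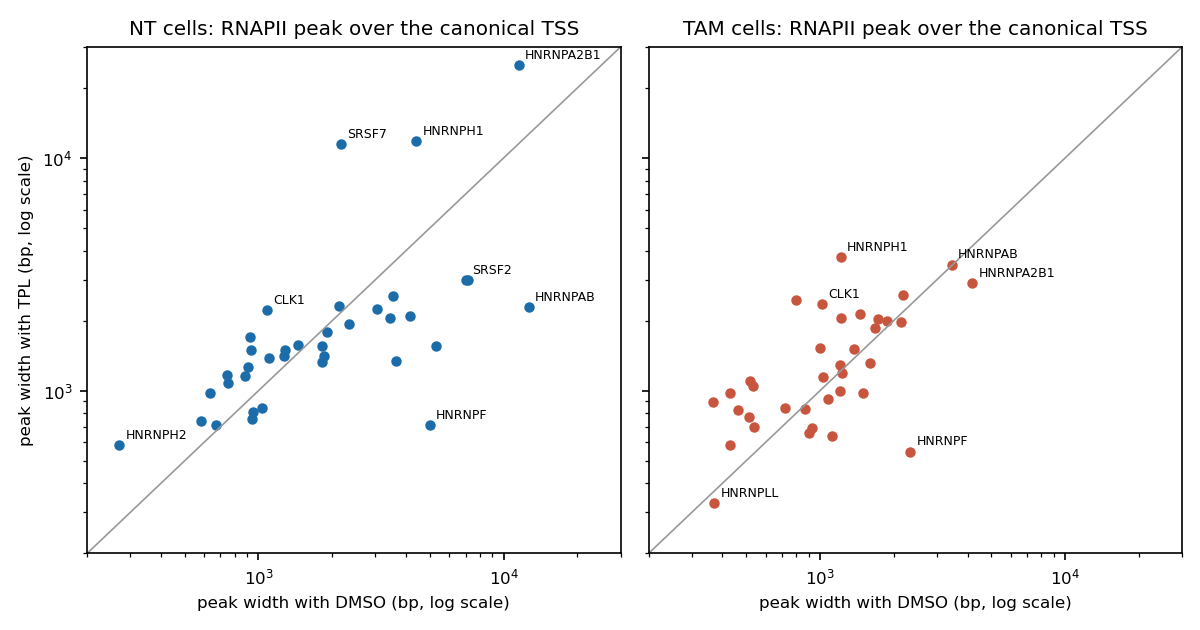
Width (bp, both axes on a log scale) of the listed RNAPII peak over the canonical start of each member, with DMSO (x axis) against TPL (y axis), in NT (left, 37 genes) and TAM cells (right, 36 genes); the grey line marks equal widths. HNRNPF lies far below the line in both states, while SRSF7, HNRNPH1 and CLK1 lie above it; the TAM list with DMSO carries another cutoff than the list with TPL.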

How the data were processed

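The study measured poly-A RNA by RNA-Seq in 8 libraries and RNAPII by ChIP-Seq. The 38 members and all lists were chosen with earlier results of these data known. For the deposited expected counts, the authors aligned reads to transcripts with Bowtie2 and ran RSEM per gene. The FPKM values are as deposited from the same step, scaled by the authors to effective length and library. Each file lists only genes with reads, and the others were set to 0. Peak lists were made by the authors on hg19 (start and end in bases, no score). The tools named per the labels include BWA and MACS 1.4.2, and the ChIP aligner is named differently in the study's methods. Symbols were found for 21077 of 23604 entries through the gene ID and for 2384 through a RefSeq accession, leaving 143.

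Counts were rounded, summed per gene (21714 genes) and fitted in R 4.3.3 with edgeR 4.0.16 as a single model of 4 groups (TMM scaling with factors of 0.975 to 1.03, filter by group, quasi-likelihood test, 15763 genes, common dispersion 0.032). Folds, standard errors and 95% intervals come from that fit, and FPKM is shown as the level. Full values are given for at most 12 members per comparison by size of change among those that passed (adjusted p up to 0.05), and for the CLK kinases. Others are given by counts and ranges, and HNRNPA1, HNRNPH3 and the members named between TAM and NT cells with TPL were added after their values were seen because few members passed there. Of each pathway list, up to 4 genes with the largest changes could be named, and PNN, RALY and UPF1 were added after their values were seen. The depth of 7461309 to 8349448 counts bounds the precision of low genes. The p-values rest on a spread shared by all 4 groups of 2 biological replicates and drawn towards that of other genes (prior degrees of freedom 7.43). They do not measure the spread of the 2 compared groups alone.

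Starts came from GENCODE release 44 on build 37. The scripts were tested on simulated data. Alternatives were DESeq2 1.42.0, DESeq2 size factors, library size, upper quartile, GAPDH, 2 other filters, the study's thresholds, a replicate block, a fit of 2 groups, the gene ID row alone, limma 3.58.1 on log2(FPKM + 1) and log2(FPKM + 0.1), and leaving out each library. For peaks they were any start, 1 kb and 500 bp. The ChIP inputs were not used here, and no protein sequences were analysed here.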

Additional observations from a re-analysis of the deposited data

How the results depend on the processing

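Limits: with 2 libraries per group, calls near the threshold changed with 1 library, and peak lists without replicates carry no error. In NT cells 14 of the 20 calls, and in TAM cells 12 of 21, held in all 20 alternatives other than the thresholds. Over all genes the median log2 fold change in NT and TAM cells was 0.10 and 0.05, and moved to 0.32 and 0.29 under upper quartile scaling and to -0.26 and -0.07 with GAPDH. Between TAM and NT cells GAPDH moved it from -0.03 to -0.50 with DMSO and from -0.03 to -0.26 with TPL.

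Higher with TPL in NT cells (2 members) became 5 under upper quartile, 0 with GAPDH or the study's thresholds, and 1 without a filter, in the 2 groups alone or by limma on log2(FPKM + 0.1). Lower (18) became 10 at the study's thresholds. Higher in TAM cells (2) became 5 under upper quartile, 1 with GAPDH, 4 in the 2 groups alone and 0 at the study's thresholds, where lower (19) became 8. TAM against NT with DMSO (0 higher, 0 lower) became 1 higher by DESeq2, 2 higher in the 2 groups alone and 6 lower with GAPDH. With TPL (3 higher, 1 lower) higher became 5 by DESeq2 or upper quartile, 0 with GAPDH or the study's thresholds, and 1 in the 2 groups alone or by limma on log2(FPKM + 0.1), while lower became 0 in the 2 groups alone, by limma on log2(FPKM + 0.1) or at the study's thresholds. The causes were not tested. The difference between TPL effects had 0 members in every alternative, and the peak counts stayed between 31 and 37.

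Leaving out 1 library at a time gave 0 to 4 higher and 14 to 20 lower with TPL in NT cells, 1 to 4 and 12 to 20 in TAM cells, 0 to 2 higher in TAM against NT with DMSO, and 0 to 6 higher and 0 to 3 lower with TPL. The lone library is then assumed to vary like the other groups.

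CLK1 in NT cells turned to -0.03 with GAPDH. CLK3, which was not called, ranged over the libraries left out from -0.15 to 0.06 in NT cells and from -0.16 to 0.07 in TAM cells. It turned to 0.17 (upper quartile), 0.02 (10 counts in every library), 0.03 (without NT replicate 1) and 0.06 (without NT+TPL replicate 1) in NT cells. In TAM cells it turned to 0.20 (upper quartile), 0.04 (10 counts), 0.01 (library size), 0.00 (both limma fits), 0.06 (without TAM replicate 1) and 0.07 (without TAM+TPL replicate 2).

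Replicate numbers of the labels were not taken as pairs, since deviations of same-numbered libraries correlated from -0.329 to 0.126. With a replicate block, TRA2A in TAM cells had an adjusted p of 0.066, and the counts with TPL were 2 higher and 18 lower in each state.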
